A study of Mus musculus with 2208 samples.

Results

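The genes described here are 10 genes of the endoplasmic reticulum (ER) stress response: Sdf2l1, Hspa5, Hsp90b1, Ddit3, Atf4, Xbp1, Herpud1, Dnajb9, Pdia4 and Manf. They were taken by symbol from a deposited table of 23951 genes, and all 10 passed the filter on low values, as did 9435 genes in all. On the log2 scale Sdf2l1 and Manf stood higher in every CKp25 mouse than in any CK mouse at 1 week, Manf by a narrow margin. Groups did not overlap, in either direction, for 20.7% of all genes at that week. With the cells of the CKp25 mice of that week pooled, Sdf2l1 was found in 96.7% of cycling and 61.7% of other cells. Hspa5 was found in 96.7 and 88.3%, and Hsp90b1 in 100 and 97.6%. Cycling cells held more genes than the others. With cells matched on that number, 0 of the 10 genes passed the test of cycling against other cells. Of all 9435 genes, 255 passed as higher and 9 as lower with these matched cells. None of the 10 passed the test of the genotype difference at 0, 2 or 6 weeks, beside 0%, 8.37% and 5.74% of all genes. The set was chosen by function and by the 1-week genotype difference of Sdf2l1, so the 1-week genotype values of the 10 genes are a description. No p is given for them, and whether any of them passes the threshold supports nothing.

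The ER folds and modifies secreted and membrane proteins. When unfolded protein accumulates there, the sensors IRE1 (Ern1), PERK (Eif2ak3) and ATF6 start the unfolded protein response, which slows translation and raises the genes for chaperones, folding enzymes and protein degradation. Microglia, the resident macrophages of the brain, secrete and take up large amounts of protein, so this machinery is in steady use there.

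The cells came from the hippocampus of CKp25 mice and of CK littermates as controls, sorted on CD11b and CD45, surface markers of microglia, into 1 well each for Smart-seq2 libraries. CKp25 mice express p25, a fragment that activates Cdk5, under a Camk2a-driven transactivator that acts in forebrain neurons, so the sorted microglia are not the cells in which the transgene is driven. Groups were taken before induction (0 weeks, age 3 months), 1 week after it (3 months and 1 week), 2 weeks after it (3 months and 2 weeks) and 6 weeks after it (4 months and 2 weeks), so week and age cannot be told apart. The mouse was the replicate, with 4 mice for CKp25 at 6 weeks and 3 for each other of the 8 groups. Mice were taken from the labels as separate animals.

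Of 2208 wells, 2028 had at least 1000 genes at FPKM (fragments per kilobase of transcript, scaled to the mapped fragments of the well) of 1 or more and were kept. They held 182 to 284 cells per group and 41 to 96 cells per mouse. Csf1r was found in 100% of the kept cells, Tmem119 in 99.4% and P2ry12 in 97.8%, while the genes of the sort markers, Itgam (CD11b) and Ptprc (CD45), were found in 90.8% and 80.6%. The first well of each mouse stood apart, with a median of 10011 genes against 2364.5 over all kept wells. Of these 25 wells, 19 held over 8000 genes, as did 1 other well. The labels do not say whether each of the 25 first wells received 1 cell. Without them the 1-week difference of Sdf2l1 was 2.76 on the log2 scale, against 2.76 with them. Cells with 3 or more monocyte markers numbered 0 to 2 per group, those with 3 or more border-associated macrophage markers 0 to 8, and those with 3 or more T or NK cell markers 0. Of the 3 measured T or NK cell markers, Cd3e and Nkg7 were listed at 0 in every kept cell and Cd3d was found in 5.67%.

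Hspa5, Hsp90b1 and Herpud1 are classical targets of ATF6 and XBP1, whose binding elements pair a CCAAT box with the letters CCACG. The stretches before the transcription starts of these genes, and of Sdf2l1, are shown so that these elements can be set beside the values of the genes. RefSeq (GRCm38.p6) gave a window for 9 of the 10 genes. Sequences run 5′ to 3′ on the gene's strand, and capitals mark each CCAAT or CCACG on either strand (ATTGG and CGTGG on the other strand).
Hspa5, chr2:34772000-34772068, plus strand: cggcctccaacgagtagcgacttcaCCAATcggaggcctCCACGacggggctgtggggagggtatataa
Hsp90b1, chr10:86705508-86705681, minus strand: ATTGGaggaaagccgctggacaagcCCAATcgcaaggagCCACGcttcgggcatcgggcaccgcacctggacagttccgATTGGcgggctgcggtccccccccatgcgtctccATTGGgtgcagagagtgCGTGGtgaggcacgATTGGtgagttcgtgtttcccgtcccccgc
Herpud1, chr8:94386352-94386412, plus strand: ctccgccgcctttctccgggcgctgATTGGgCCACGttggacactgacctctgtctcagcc
Sdf2l1, chr16:17132497-17132557, minus strand: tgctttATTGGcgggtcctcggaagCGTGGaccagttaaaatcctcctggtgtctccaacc
A CCAAT followed after 9 bases by CCACG (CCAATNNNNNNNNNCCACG, searched on both strands over 250 bases before the start) stood at -65 in Hspa5, and at -212 and, on the other strand, -107 in Hsp90b1, counted from the transcription start. It occurs in 0.113% of 32851 RefSeq windows of that length. The shorter ATTGGNCCACG stood at -52 in Herpud1 and occurs in 0.0304% of windows. Sdf2l1 held neither in exact form, and 1 match to the shorter element with 1 mismatch at -149, which 1.03% of windows have. The stretches shown include those of every gene with an exact match. Of the genes not shown, Ddit3 and Pdia4 matched the longer element only with 1 mismatch, as 1.32% of windows do. Atf4 matched the shorter one only with 1 mismatch, and Xbp1 and Dnajb9 held no match. The letters are a description of these windows and show no binding.

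The ER chaperones had the highest levels of the 10 genes. Hsp90b1, which encodes the ER form of HSP90 (GRP94), had group means of 142 to 366 FPKM and was found in 88.1 to 98.1% of cells. Hspa5, which encodes BiP, the chaperone that also holds the sensors inactive, had group means of 145 to 381 FPKM and was found in 72.6 to 90.3%. At the other end, Manf, a secreted ER-resident protein, had group means of 9.97 to 41.2 FPKM, and Ddit3, the transcription factor CHOP that acts in prolonged ER stress, was found in 13.4 to 30.0% of cells. A cell held a mean of 4.50 to 6.27 of the 10 genes by group. That mean was 5.37 ± 0.92 (SD, n = 3 mice) in CK and 6.27 ± 0.66 (n = 3) in CKp25 at 1 week, a gap near the spread between mice.

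**Figure D1:**
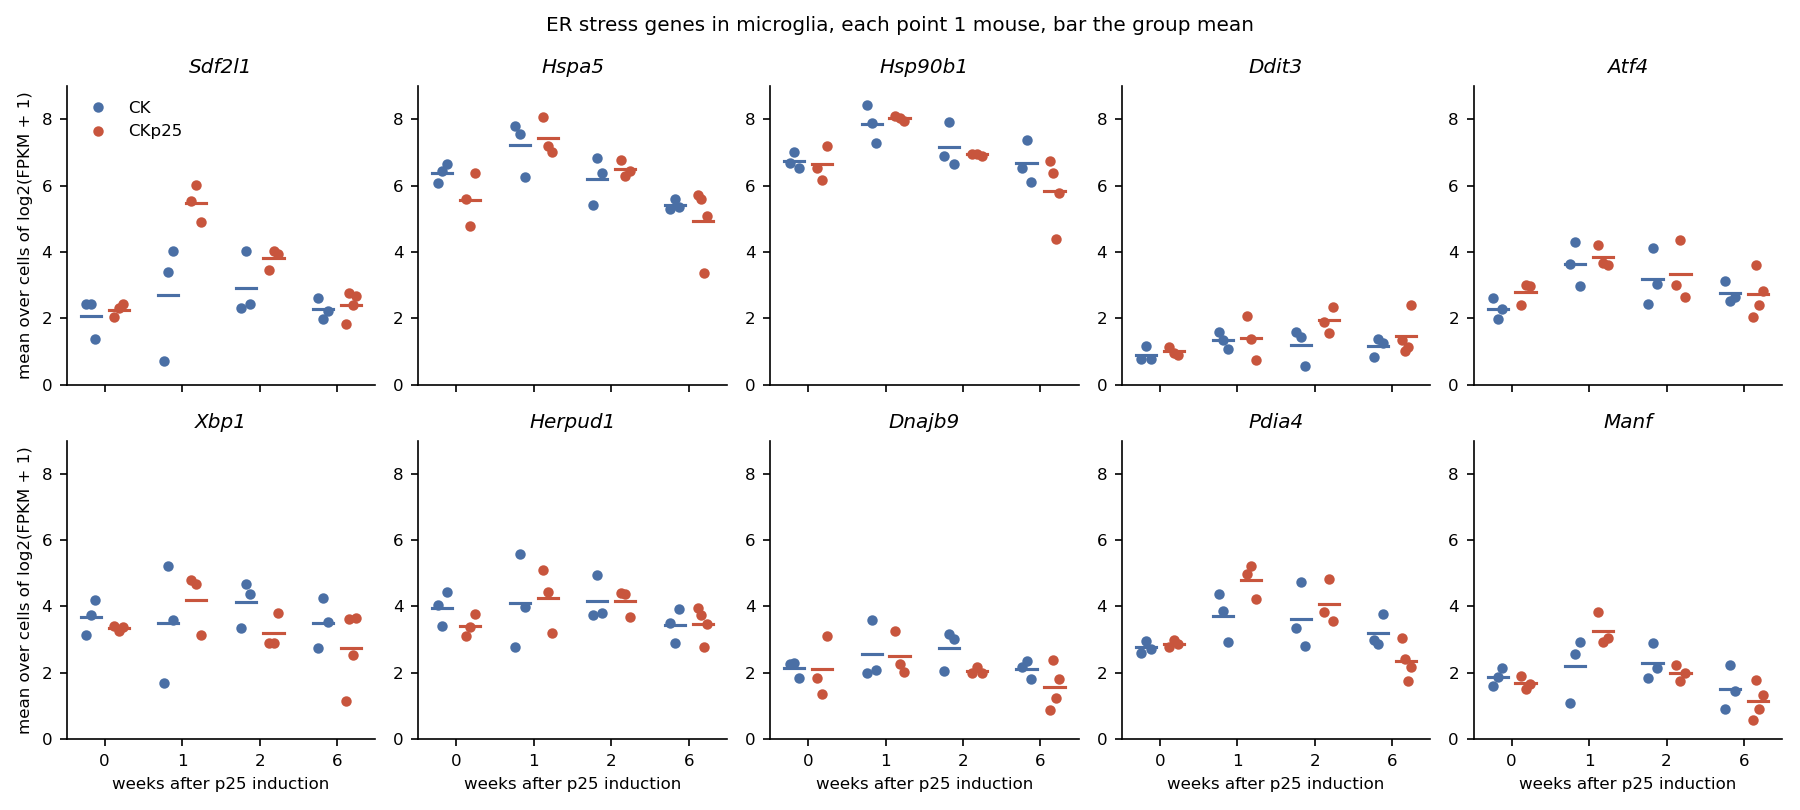
Average of log2(FPKM + 1) across the kept cells of a mouse for the 10 genes (vertical axis) against weeks after p25 induction (horizontal axis), with 1 point per mouse and a bar at the group mean, CK in blue and CKp25 in red. The 3 CKp25 mice at 1 week lie above the 3 CK mice in Sdf2l1 and Manf, and CK mouse 1 lies lowest of that week in both.

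Sdf2l1 encodes an ER protein that works with BiP and its J-domain partners in folding. At 1 week its mean level was 14.3, 107 and 147 FPKM in CK mice 1, 2 and 3, and 258, 209 and 189 FPKM in CKp25 mice 1, 2 and 3. It was found in 10.7, 45.3 and 51.6% of the CK cells and in 67.4, 78.4 and 63.4% of the CKp25 cells. All 3 CKp25 mice thus stood above all 3 CK mice, and CK mouse 1 stood far below the other CK mice. On the log2 scale (each mouse's average of log2(FPKM + 1) across its cells) the difference was 2.76 ± 0.53 (SE, n = 3 and 3 mice). Without CK mouse 1 it was 1.77 ± 0.49, and without any other single mouse of that week it lay between 2.49 and 3.41. In the cells that held the gene, its median was 89.6, 165 and 227 FPKM in CK and 358, 229 and 205 FPKM in CKp25. These medians overlapped between the groups, while the shares of cells did not.

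At the other weeks Sdf2l1 overlapped between the genotypes. Before induction it stood at 90.2, 68.7 and 30.3 FPKM in CK and 55.9, 46.6 and 70.4 FPKM in CKp25, a difference of 0.17 ± 0.53 on the log2 scale (limma with Benjamini-Hochberg adjustment over all genes, adjusted p = 1.00). At 2 weeks it was found in 32.3, 57.3 and 33.7% of CK cells and in 51.1, 62.5 and 57.4% of CKp25 cells, with a difference of 0.88 ± 0.53 (limma, adjusted p = 0.375). At 6 weeks the difference was 0.14 ± 0.50 (limma, adjusted p = 0.934). By group mean, CKp25 at 1 week was first and did not overlap with CKp25 at 2 weeks, the second. From there to CK at 0 weeks, the last, each group overlapped with the next.

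Manf and Pdia4 had the next largest differences at 1 week. Manf was found in 19.0, 46.3 and 47.3% of CK cells and 62.8, 58.0 and 49.5% of CKp25 cells, and its difference was 1.07 ± 0.40 on the log2 scale. Its CKp25 mice lay above its CK mice on that scale, by a narrow margin over CK mouse 3, and without CK mouse 1 the difference was 0.51 ± 0.40. Pdia4, a protein disulfide isomerase that forms and exchanges disulfide bonds, was found in 57.1, 57.9 and 41.9% of CK cells and 66.3, 76.1 and 60.2% of CKp25 cells. Its difference was 1.08 ± 0.47, with mice that overlapped between the groups on the log2 scale.

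The chaperones BiP and GRP94 overlapped between the genotypes at 1 week. Hspa5 stood at 517, 341 and 263 FPKM in CK and at 535, 279 and 328 FPKM in CKp25, a difference of 0.21 ± 0.55 on the log2 scale. Hsp90b1 stood at 480, 310 and 294 FPKM in CK and at 400, 362 and 337 FPKM in CKp25, a difference of 0.16 ± 0.52. CK mouse 1, the lowest of the week for Sdf2l1 and Manf, was the highest CK mouse for both chaperones. The 95% intervals ran from -0.89 to 1.31 for Hspa5 and from -0.89 to 1.20 for Hsp90b1.

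The transcription factors of the response overlapped between the genotypes at 1 week. Atf4, translated when PERK slows general translation, stood at 118, 101 and 72.7 FPKM in CK and 109, 62.2 and 100 FPKM in CKp25, a difference of 0.20 ± 0.47. Xbp1, whose messenger RNA is spliced by IRE1, stood at 31.0, 129 and 87.6 FPKM in CK and 127, 75.9 and 75.2 FPKM in CKp25, a difference of 0.71 ± 0.65 that was -0.20 ± 0.61 without CK mouse 1. Gene-level FPKM do not separate spliced from unspliced Xbp1. Ddit3 stood at 43.2, 29.3 and 31.8 FPKM in CK and 57.6, 24.8 and 13.5 FPKM in CKp25, a difference of 0.05 ± 0.32. Herpud1, a membrane protein of ER-associated degradation, differed by 0.12 ± 0.53, and Dnajb9, a BiP partner induced through XBP1, by -0.04 ± 0.43. In all, 2 of 10 genes (Sdf2l1 and Manf) had groups that did not overlap, as had 20.7% of all genes at 1 week, and 1 of 10 (Sdf2l1) passed the adjusted threshold of 0.05, as did 4.29% of all genes. The choice of the genes used this comparison, so nothing is read from these counts. The median difference was 0.20 over the 10 genes and 0.06 over all tested genes.

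**Figure D2:**
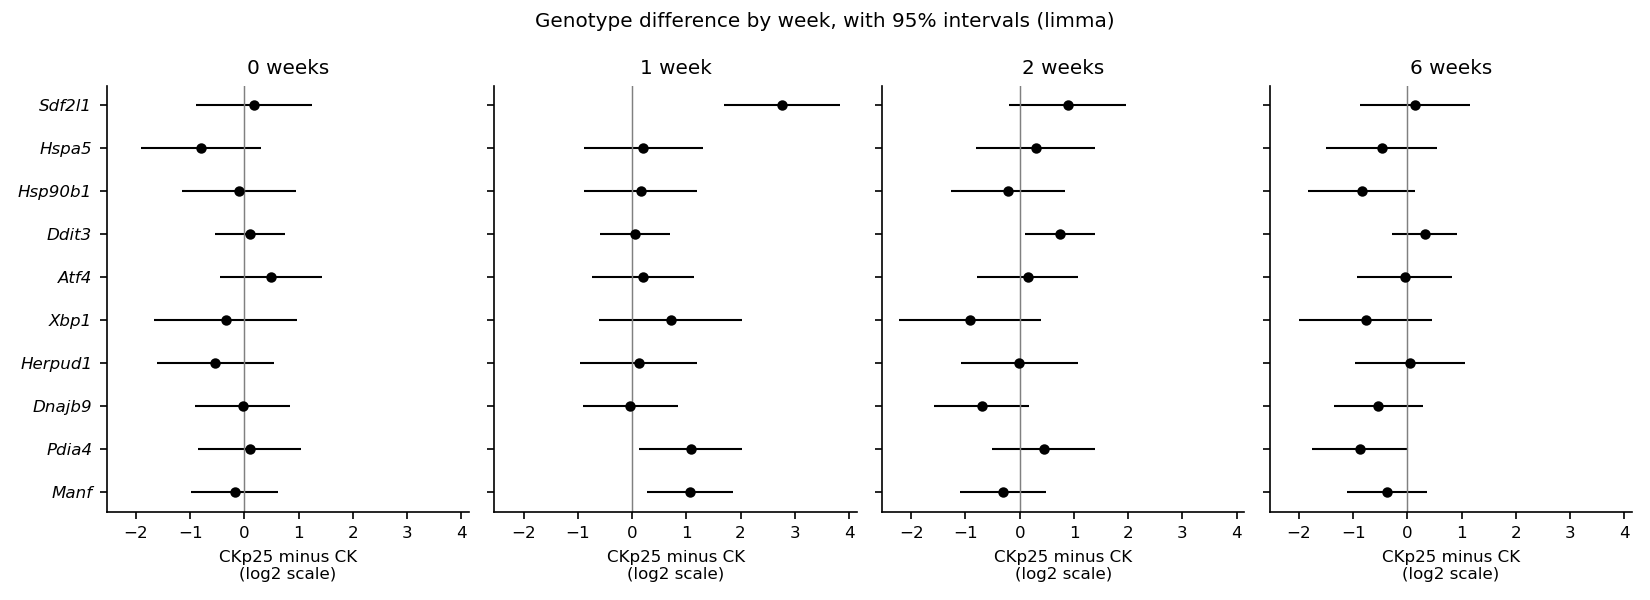
CKp25 minus CK difference of each gene on the log2 scale (horizontal axis) at 0, 1, 2 and 6 weeks, with the 95% interval from limma. Sdf2l1 lies farthest to the right at 1 week, the comparison that chose the set, and at 0, 2 and 6 weeks its interval includes 0.

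Before induction none of the 10 genes differed by the test (0 of 10 by limma, and 0 at an unadjusted p under 0.05), beside 0% of all genes. No gene had groups that did not overlap, against 7.51% of all genes. The largest difference was that of Hspa5, at -0.80 ± 0.55, with 282, 226 and 295 FPKM in CK and 204, 114 and 233 FPKM in CKp25.

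At 2 weeks 0 of 10 genes passed (limma), while 8.37% of all genes did, and 1 gene, Ddit3, had an unadjusted p under 0.05. Ddit3 was found in 20.8, 21.9 and 8.70% of CK cells and in 29.8, 25 and 35.3% of CKp25 cells, a difference of 0.75 ± 0.32 on the log2 scale (limma, adjusted p = 0.161). The 3 CKp25 mice had the larger shares, but on the log2 scale the lowest of them, at 1.56, lay just under the highest CK mouse, at 1.58. Xbp1 differed by -0.92 ± 0.65 (limma, adjusted p = 0.471) and Dnajb9 by -0.70 ± 0.43 (limma, adjusted p = 0.395). Dnajb9 stood at 41.5, 66.4 and 50.4 FPKM in CK and at 25.9, 24.3 and 21.6 FPKM in CKp25, so its mean levels did not overlap although its log2 values did. No gene had log2 values that did not overlap, against 24.1% of all genes.

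At 6 weeks 0 of 10 genes passed (limma; 0 at an unadjusted p under 0.05), while 5.74% of all genes did, and none had groups that did not overlap, against 12.9% of all genes. Of the 10 differences 7 were below 0, with a median of -0.42 over the 10 genes and -0.04 over all genes. Pdia4 was found in 45.5, 44.7 and 58.2% of CK cells and in 43.9, 40.4, 32.7 and 38.3% of the cells of CKp25 mice 1 to 4, a difference of -0.87 ± 0.44 (limma, adjusted p = 0.333). Hsp90b1 stood at 152, 234 and 164 FPKM in CK and 245, 146, 56.8 and 121 FPKM in CKp25, a difference of -0.84 ± 0.49 (limma, adjusted p = 0.424). CKp25 mouse 3 was the lowest for Hsp90b1 and Hspa5, and without it the differences were -0.36 ± 0.45 and 0.05 ± 0.48. That mouse kept 52 of 89 wells, with a median relative depth of -0.50 on the log2 scale against the median kept well. CKp25 mouse 1, the highest of the 4 for both genes, had a lower relative depth of -0.86. With quantile normalization Hsp90b1 passed, at -1.22 ± 0.37 (limma, adjusted p = 0.0264).

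The genotype effect at 6 minus 2 weeks passed for 0 of 10 genes (limma; 1 at an unadjusted p under 0.05, Pdia4), beside 0.0424% of all genes. For Pdia4 the change in the genotype effect was -1.31 ± 0.64 (limma, adjusted p = 0.890).

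In CK mice alone, none of the 10 genes passed the test of a change with time. Against 0 weeks, 0 of 10 passed at 1 week (limma; 3 at an unadjusted p under 0.05), 0 at 2 weeks (0) and 0 at 6 weeks (0), and 0% of all genes passed in each of these 3 comparisons. At 1 week 9 of 10 differences were above 0, with a median of 0.54 beside 0.14 over all genes. Atf4 stood at 60.7, 40.8 and 48.9 FPKM in CK mice at 0 weeks and at 118, 101 and 72.7 FPKM at 1 week. Its difference was 1.35 ± 0.47 on the log2 scale (limma, adjusted p = 0.343). Hsp90b1 stood at 229, 223 and 172 FPKM at 0 weeks and 480, 310 and 294 FPKM at 1 week in CK mice, a difference of 1.13 ± 0.52 (limma, adjusted p = 0.446). The CK mice at 1 week serve both in these comparisons and as the controls of that week's CKp25 mice.

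A cell was counted as cycling when it held at least 3 of 10 cell division genes such as Mki67 and Top2a. At 1 week 61 of 267 CKp25 cells were cycling (18, 23 and 20 cells in mice 1, 2 and 3), against 7 of 272 CK cells. First wells made up 2 of the 7 CK cells and 3 of the 61 CKp25 cells. These CKp25 cells also served in the 1-week comparison that chose the set. The cycling contrast of the 10 genes is thus not independent of that choice, and its p-values are a description. Sdf2l1 was found in 94.4, 95.7 and 100% of the cycling cells of the 3 CKp25 mice and in 60.3, 72.3 and 53.4% of their other cells. The cycling cells were higher in all 3 mice, by 2.76 ± 0.41 on the log2 scale (limma with the mouse as a block, adjusted p = 1.55e-05). Manf was found in 94.4, 82.6 and 90.0% of cycling and 54.4, 49.2 and 38.4% of other cells, a difference of 2.34 ± 0.42 (limma, adjusted p = 0.000162). Hspa5 was found in 94.4, 95.7 and 100% of cycling and 91.2, 89.2 and 84.9% of other cells. Its difference was 1.06 ± 0.36 (limma, adjusted p = 0.0302), which did not pass without CKp25 mouse 1 (adjusted p = 0.0753) or mouse 3 (0.365), without the first wells (0.0553), with 5 of 10 cell division genes required (0.0943) or with no block (0.136). Without the first wells Sdf2l1 and Manf still passed, at 2.74 ± 0.42 and 2.29 ± 0.43 (limma, adjusted p = 9.63e-05 and 0.000672).

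These 3 of 10 genes were higher in cycling cells, beside 27.9% of all genes called in that comparison, and 0 were lower. The median difference was 0.71 over the 10 genes and 0.44 over all genes. Pdia4 differed by 1.12 ± 0.45 (limma, adjusted p = 0.0650) and passed without CKp25 mouse 2 (1.78 ± 0.49, adjusted p = 0.00272). Ddit3 differed by 0.06 ± 0.33 and Herpud1 by 0.09 ± 0.43 (limma, adjusted p = 0.903 and 0.894).

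Cycling CKp25 cells held a median of 3644 genes and the others 2291.5, and their median relative depths were 0.84 and -0.38 on the log2 scale. When each cycling cell was matched within its mouse to another cell by the number of genes found, an alternative chosen after the data were seen, 0 of the 10 genes passed (limma; 2 at an unadjusted p under 0.05). Under this match 255 of all 9435 genes passed as higher and 9 as lower. Sdf2l1 was then found in 94.1, 95.5 and 100% of cycling cells and 82.4, 90.9 and 63.2% of matched cells, with a difference of 1.33 ± 0.49 (limma, adjusted p = 0.156). Manf was then found in 94.1, 81.8 and 89.5% of cycling cells and 70.6, 86.4 and 47.4% of matched cells, lower in the cycling cells of mouse 2, with a difference of 1.28 ± 0.55 (limma, adjusted p = 0.259). The match paired 17, 22 and 19 cycling cells and left them with more genes, at medians of 3716, 4014 and 3165 against 3409, 3365 and 2669.

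In non-cycling cells alone, Sdf2l1 at 1 week was found in 10.7, 46.7 and 50.5% of CK cells and in 60.3, 72.3 and 53.4% of CKp25 cells. The lowest CKp25 mouse, at 53.4%, stood close to the highest CK mouse, at 50.5%. The genotype difference in these cells was 2.14 ± 0.54, against 2.76 ± 0.53 in all cells, and in Manf it was 0.58 ± 0.40 against 1.07 ± 0.40. With non-cycling cells alone 10 of 9068 genes passed the threshold at 1 week, and 0 of the 10 members were among them.

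**Figure D3:**
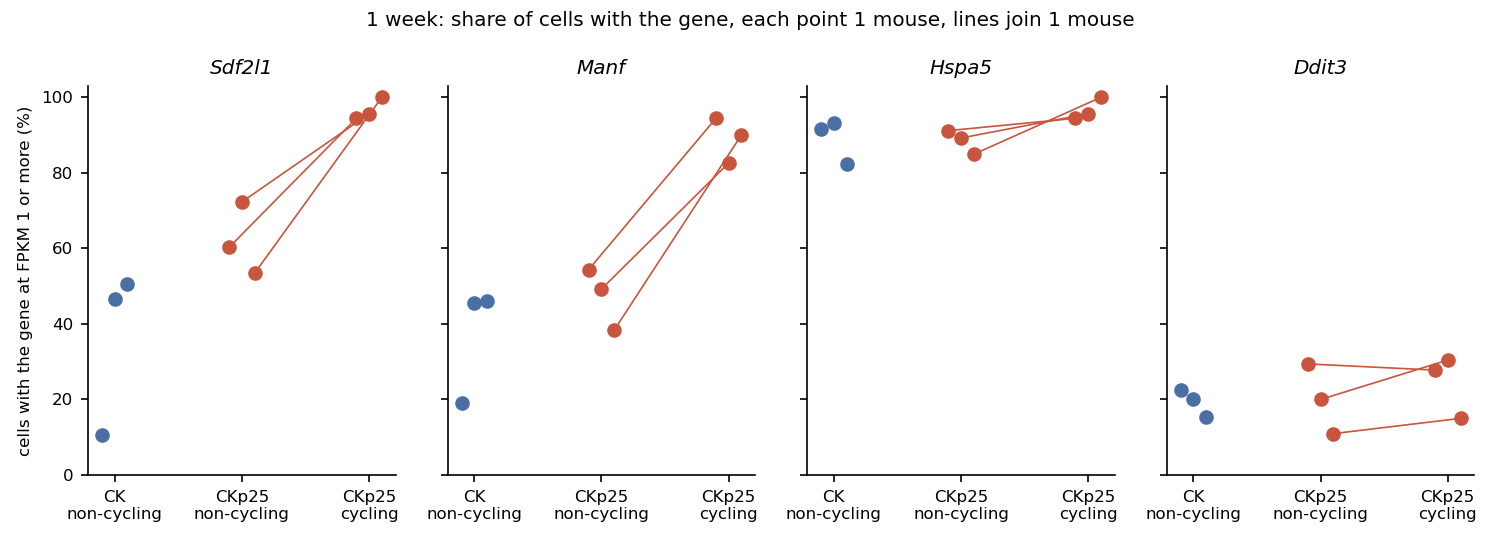
Percentage of cells with Sdf2l1, Manf, Hspa5 or Ddit3 at FPKM of 1 or more at 1 week (vertical axis) in non-cycling CK cells, non-cycling CKp25 cells and cycling CKp25 cells, with 1 point per mouse and lines joining the cells of 1 mouse. Sdf2l1 reaches 94.4 to 100% in cycling cells and 53.4 to 72.3% in the other cells of the same mice.

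Other genes of the pathway were taken in 5 lists with 74 tested genes. All gene lists here were chosen with earlier results of these data known. Their counts and p-values are thus a description and give no independent support. At 1 week 7 of the 74 rose in CKp25, 7 rose at 2 weeks and 1 rose at 6 weeks, beside the 4.29%, 8.37% and 5.74% of all genes that passed at these weeks. None of the 74 fell, and 0 passed at 0 weeks (limma; 0 at an unadjusted p under 0.05). None of the 6 sensors and their proteases passed at any week (limma; 0 at an unadjusted p under 0.05 in each week). Eif2ak3 (PERK) differed by -0.10 ± 0.13 at 1 week and Ern1 (IRE1) by -0.03 ± 0.16.

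The targets of the ATF4 arm, a list of 22 genes of which 17 passed the filter on low values, held most of these genes. At 1 week 5 of 17 rose: Psat1, Phgdh and Shmt2 of serine and glycine synthesis, Mthfd2 of mitochondrial folate metabolism, and Gars, a tRNA synthetase. At 2 weeks 5 of 17 rose: Psat1, Mthfd2, Gars, Atf3, a stress-induced transcription factor, and Eif4ebp1, a repressor of translation. Psat1 rose by 1.86 ± 0.33 at 1 week (limma, adjusted p = 0.00011), from 14.8 ± 11.9% to 41.4 ± 9.98% of cells (SD, n = 3 mice each), and by 2.07 ± 0.33 at 2 weeks (adjusted p = 1.14e-05). Psat1 and Mthfd2 passed at both weeks when any 1 mouse was left out, while Gars, Phgdh and Shmt2 at 1 week and Atf3 at 2 weeks each lost the call when any 1 of 4 mice was left out, and Gars at 2 weeks when any 1 of 17 mice was left out. Atf4 itself differed by 0.20 ± 0.47 and 0.14 ± 0.47 at these weeks. The list's median difference was 0.50 at 1 week and 0.29 at 2 weeks, beside 0.06 and -0.00 over all genes. Before induction it was 0.20, beside 0.03.

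Among 20 other ER chaperones and folding enzymes, Creld2 and Txndc5 rose at 1 week and 0 passed at 2 or 6 weeks (limma; 2 in each of these weeks at an unadjusted p under 0.05). Creld2, which encodes an ER-resident protein induced by ER stress, rose by 1.49 ± 0.34 (limma, adjusted p = 0.00375), and Txndc5, a disulfide isomerase, by 1.03 ± 0.23 (adjusted p = 0.00277). Creld2 lost the call without CK mouse 1 and Txndc5 without CKp25 mouse 2. Of 15 genes of ER-associated degradation, Os9, a lectin that recognises misfolded glycoproteins, rose at 2 weeks by 2.1 ± 0.40 (limma, adjusted p = 0.000288), from 49.3% to 82.7% of cells, and 0 passed at 1 or 6 weeks (limma; 1 in each at an unadjusted p under 0.05). Of 16 translocon and signal peptide genes, Ssr4 rose at 2 weeks by 2.28 ± 0.56 (limma, adjusted p = 0.00547). Sec61b, a subunit of the channel, rose at 6 weeks by 1.34 ± 0.40 (adjusted p = 0.0342), a call lost when any 1 of 5 mice was left out. Os9 and Ssr4 kept the call when any 1 mouse was left out.

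With non-cycling cells alone, 0 of 73 ER pathway genes passed at 1 week (limma; 12 at an unadjusted p under 0.05), beside 10 of all 9068 genes. With all cells 7 of 74 passed, beside 405 of all 9435 genes. In the CKp25 cells of 1 week, 29 of 74 were higher in cycling cells and 0 lower, beside the 27.9% of all genes. Psat1 had a difference of 4.00 ± 0.43 there (limma, adjusted p = 1.01e-07), Ssr2 2.91 ± 0.42 (8.84e-06) and Creld2 2.83 ± 0.43 (1.99e-05). With cells matched on the number of genes found, 5 of 74 passed (Dnajc10, Mthfd2, Psat1, Ssr2 and Tor1a), all higher in cycling cells, beside 255 higher and 9 lower of all 9435 genes.

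**Figure D4:**
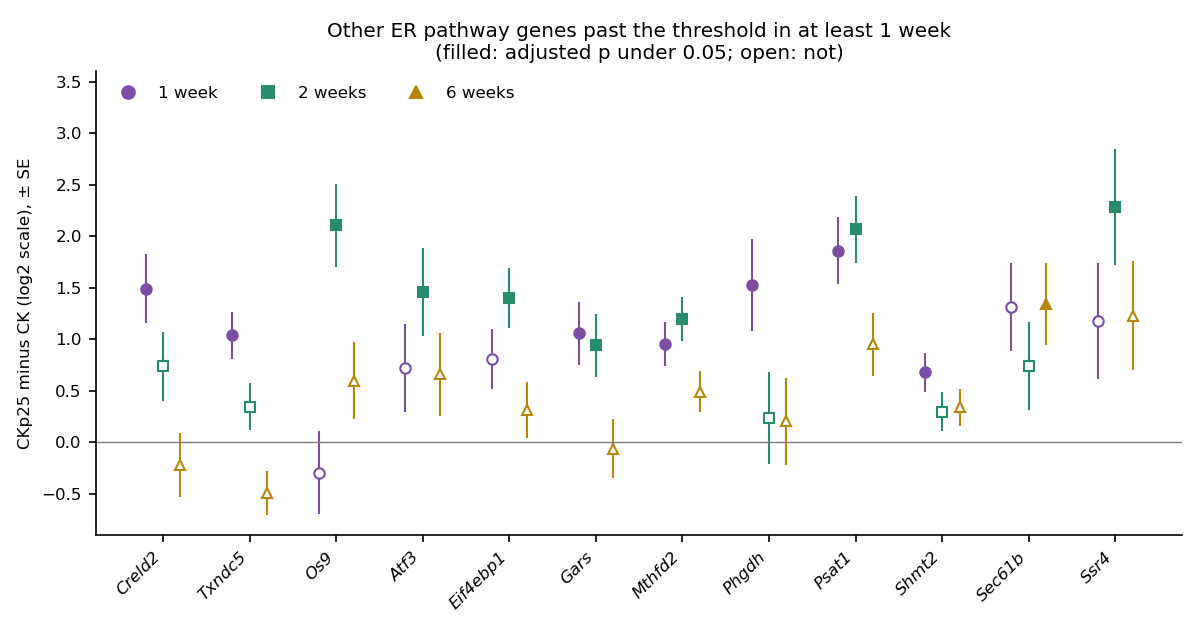
CKp25 minus CK difference ± SE on the log2 scale (vertical axis) at 1, 2 and 6 weeks for the 12 ER pathway genes outside the 10 members that passed in at least 1 week, with filled marks where the adjusted p was under 0.05. Psat1 and Mthfd2 are filled at 1 and 2 weeks, and Sec61b is filled only at 6 weeks.

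Some genes of stress outside the ER also passed. Of 11 cytosolic and mitochondrial heat shock genes, Hspd1, the mitochondrial chaperonin, rose at 1 and 2 weeks, and its partner Hspe1 rose at 2 and 6 weeks, by 2.49 ± 0.42 and 2.08 ± 0.40 (limma, adjusted p = 4.2e-05 and 0.000296). Of 16 genes induced by tissue dissociation, 0 passed at any week (limma; 0, 3, 2 and 5 at an unadjusted p under 0.05 at 0, 1, 2 and 6 weeks), and their median difference was -0.19 at 1 week. The part of dissociation in the values above was not tested.

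Over the 25 mouse profiles, the 5 tested genes outside the members most like Sdf2l1 were Ube2s, a ubiquitin-conjugating enzyme of mitosis (Pearson r = 0.92), Srm (0.88), Ranbp1 (0.88), Cisd2 (0.87) and Pgp (0.86). Within the 10 genes, Sdf2l1 was most like Manf (0.75) and least like Ddit3 (0.26). For Hspa5 the 5 were Cd81 (0.88), Actb (0.86), Hnrnpa2b1 (0.86), Srsf3 (0.86) and Derl2 (0.85), and within the 10 genes Hspa5 was closest to Hsp90b1 (0.90) and stood at 0.42 to Sdf2l1. These values describe profiles that share mouse, depth and group, and no test was made.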

How the data were processed

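Libraries of single sorted cells were made with a modified Smart-seq2 protocol, per the labels. The authors deposited FPKM per gene and well, with Cufflinks 2.2 and the genome build mm9 named in the submitters' processing notes. The sources used here give no annotation, filter or strand setting. Where genes overlap on opposite strands in GENCODE M21 (Hsp90b1, Herpud1, Dnajb9 and Manf), reads of the partners may not be told apart. Promoter windows are from RefSeq GRCm38.p6, with no row for Manf.

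The 10 members, the gene lists and the tests were chosen with earlier results of these data known. Wells were kept from 1000 genes at FPKM of 1 or more. A mouse's profile was the mean over its kept cells of log2(FPKM + 1), a scale that understates changes of low genes, and a gene was tested when found in 10% or more of a mouse's cells in 3 or more mice. limma 3.58.1 (R 4.3.3) (trend and robust settings) was fitted to the 8 groups of 25 mice, 2-sided, with Benjamini-Hochberg adjustment over 9435 genes and a threshold of 0.05. The fit was tested on simulated data. Python 3.11.15 was used for the rest. A group was described as not overlapping when all its mice lay above, or all below, those of the other. Named genes were all members, up to 4 genes per list by smallest p, list genes past the threshold, and the 5 genes most like Sdf2l1 and Hspa5.

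Low FPKM values came in whole steps (93.3% of values under 10 fragments lay within 0.1 of a whole number), which gave each well's depth relative to the median kept well. At that median, 1 fragment was worth 10.0 FPKM of Hspa5 and 11.7 FPKM of Manf. The absolute depth is unknown, and no counting interval was computed. Alternatives are in the closing section.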

Additional observations from a re-analysis of the deposited data

How the results depend on the processing

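Directions and calls were recomputed under the other settings and without each mouse in turn. The 10 genes were chosen with their 1-week differences known, so their count there supports nothing. The count of members passing at 1 week, 1 in the fit reported, was 0 with log2 of the mean FPKM, 0 with non-cycling cells alone (also without first wells, 0), 2 (Sdf2l1 and Manf) with wells of at least 2000 genes and 2 with relative depth as a covariate. At 6 weeks it was 1 (Hsp90b1) with quantile normalization against 0. In cycling cells it was 0 with cells matched on genes found, against 3. The other pathway genes numbered 7 at 1 week, 0 with log2 of the mean FPKM, 0 with non-cycling cells alone and 3 to 9 without single mice. At 2 weeks they numbered 7 and 0 with log2 of the mean FPKM. At 6 weeks they numbered 1, 3 with quantile normalization and 0 to 4 without single mice. The cause was not tested. With log2 of the mean FPKM the median of all genes was -0.17, -0.35 and -0.18 at 1, 2 and 6 weeks, and 96 genes rose and 9 fell of 9435 at 1 week. With non-cycling cells alone 10 genes rose and 0 fell of 9068 at 1 week. In cycling cells matched on genes found, 255 genes were higher and 9 lower of 9435. No other count of members changed by over 1.5 times, and no passing member changed sign.

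Of 12 same-numbered pairs, 8 had correlated deviations over 0.1 (range over the 12 -0.12 to 0.35). All 3 pairs at 0 weeks did, but not all at 1, 2 or 6 weeks. The fit reported did not pair the mice by number at any week, 0 weeks included. As a hint from the data, 16 of 24 mice correlated best with their own number. With the replicate block, 1 member passed at 1 week and 0 in the other weeks, as without it, while the genes called at 1 week went from 368 higher and 37 lower to 510 and 74, at 2 weeks from 579 and 211 to 727 and 318, and at 6 weeks from 397 and 145 to 378 and 198. A value of 0 in a well can be RNA missed at low depth, and Ddit3, Dnajb9, Manf, Sdf2l1 and Atf4 were each listed at 0 in most cells of most groups. The p-values between groups rest on the spread between mice within a group, pooled over the 8 groups of 3 or 4 mice. Those of cycling cells, with the mouse as a block, rest on how the difference varied over the 3 CKp25 mice. In both, limma drew the spread of each gene toward that of the other genes.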
